A study of Mus musculus with 12 samples.

Results

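The antioxidant enzyme genes described here are 9 genes of superoxide and peroxide handling: the superoxide dismutases Sod1, Sod2 and Sod3, catalase (Cat), the glutathione peroxidases Gpx1, Gpx3 and Gpx4, and the stress-induced oxidoreductases Nqo1 and Hmox1. They were taken by gene symbol from 20632 symbols, and all 9 were among the 12175 genes that passed a filter on low counts. The set was chosen by function and by the CPM of Sod3, which had been seen to be higher in vehicle-treated knockouts than in wild types, so values of the members in that comparison are given as a description, with no test.

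The assay was QuantSeq, which sequences only transcript 3' ends, applied to gonadal (peri-uterine) white fat that came from 12 dams at E17.5 of pregnancy. WT vehicle holds 4 animals labelled Tnfrsf11a (Rank) with Foxn1 Cre - and given vehicle. KO vehicle holds 4 animals labelled Tnfrsf11a (Rank) with Foxn1 Cre + and given vehicle, and KO Treg holds 4 animals of the knockout label given the treatment labelled Treg. Tnfrsf11a encodes RANK, the receptor for RANK ligand, and Foxn1 is a transcription factor of thymic epithelium, so the fat is not the main site of this Cre. The labels do not give the strain, age, dose or route, or what the Treg treatment consisted of. Each library carries its own animal number and was taken as 1 animal.

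Superoxide dismutases convert superoxide to hydrogen peroxide and oxygen: SOD1 mainly in the cytosol, SOD2 in mitochondria and SOD3 outside the cell. Catalase, in peroxisomes, and the glutathione peroxidases then remove hydrogen peroxide, with GPX3 secreted and GPX4 acting on lipid hydroperoxides in membranes. NQO1, a quinone reductase, and HMOX1, which breaks down haem, are well-known products of genes induced through the transcription factor NRF2. White fat, like other tissues, forms peroxide in its mitochondria and peroxisomes.

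Per library the files held 5551967 to 12972655 counts for WT vehicle, 8350348 to 9617503 for KO vehicle and 6583263 to 8746946 for KO Treg. Tnfrsf11a lay between 4.66 and 10.6 CPM (counts scaled by TMM to equal library sizes) in WT vehicle, 6.19 and 8.89 for KO vehicle and 5.83 and 10.3 for KO Treg; these overlapping levels in fat do not check the labels. All 8 adipocyte markers were detected in every group. The titles carry animal numbers of a low and a high range, which no label names as a batch. KO vehicle has low numbers only, while in WT vehicle and in KO Treg replicates 1 and 2 have low and replicates 3 and 4 have high numbers. These ranges are called the lower and the higher number series. Markers of brown or beige fat summed to 5760 CPM in WT vehicle 1, against 140 to 390 CPM in the other WT vehicle libraries, and to 2260 and 1280 CPM in KO vehicle 2 and 3. Placental markers were highest in KO Treg 2, at 305 CPM, and KO vehicle 1, at 105 CPM, against 12.9 to 32.3 CPM in the other 10 libraries. These are bulk libraries, in which fewer cells of a type and less RNA per cell cannot be told apart.

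Sod3, the secreted dismutase (chr5:52363791-52371418, plus strand, mm10), was at 183, 134, 156 and 192 CPM in the WT vehicle libraries. In KO vehicle it was at 402, 252, 374 and 296 CPM. The KO Treg libraries were at 151, 233, 199 and 197 CPM. Every KO vehicle library lay above every library of the other two groups, and those groups overlapped each other. The group means were 166 ± 26.6 (SD, n = 4) in WT vehicle, 331 ± 69.2 (SD, n = 4) for KO vehicle and 195 ± 33.9 (SD, n = 4) CPM for the KO Treg group. KO vehicle was 1.99-fold above WT vehicle, a log2 fold change of 0.99 ± 0.17 (SE), which is the difference that led to the choice of these genes. Within the lower number series alone the value was 1.05.

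Sod1, the copper-zinc dismutase of the cytosol (chr16:90220754-90226329, plus strand), was at 3940, 3380, 3070 and 3110 CPM in WT vehicle, at 2610, 2800, 3260 and 2660 in KO vehicle, and at 2800, 3130, 3610 and 3050 CPM in KO Treg. The 3 groups overlapped, and within each the highest library was at most 1.29 times the lowest. Sod2, the manganese dismutase of mitochondria (chr17:13006846-13040063, plus strand), was at 708, 499, 344 and 495 CPM in WT vehicle, at 433, 329, 533 and 455 in KO vehicle, and then at 604, 321, 384 and 534 CPM in KO Treg. Its groups overlapped too, and in WT vehicle the highest library was 2.06 times the lowest. The last 300 bases of Sod2 matched stretches of at least 100 bases in transcripts of 6 other genes at 95% identity or more, so some of its reads may have been assigned elsewhere. The same search gave 1 pseudogene each for Sod1 (Gm8566) and Gpx4 (Gpx4-ps2) and none for the other members.

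Cat, the peroxisomal catalase (chr2:103453849-103485160, minus strand), was at 1880, 997, 1330 and 1030 CPM in WT vehicle. In KO vehicle it was at 800, 746, 1000 and 923 CPM. In KO Treg it was at 1020, 1060, 1300 and 1110 CPM. The 4 KO Treg libraries all lay above the 4 KO vehicle libraries, by a small margin at the closest pair, while WT vehicle and KO vehicle overlapped through WT vehicle 2 and KO vehicle 3. WT vehicle 1, the library with the highest Cat level, was also the one with the most brown or beige fat marker counts. KO vehicle 2, the next in those markers at 2260 CPM, had the lowest Cat level of all libraries.

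The glutathione peroxidase Gpx3, which is secreted (chr11:54902453-54910377, plus strand), was at 1430, 1250, 3130 and 1870 CPM in WT vehicle. In KO vehicle it was at 1020, 641, 1120 and 1260 CPM. The KO Treg libraries were at 1820, 1690, 1690 and 1610 CPM. Every KO Treg library lay above every KO vehicle library. WT vehicle spread most widely, with an SD of 847 CPM around 1920 CPM, and overlapped both other groups. WT vehicle 3 held the highest Gpx3 level and also the highest sum of smooth muscle markers. That sum was 2230 CPM, against 290 to 1530 CPM in the other WT vehicle libraries. Its sums of adipose stroma markers, 4860 CPM, and mesothelium markers, 228 CPM, were the highest of WT vehicle too. In KO Treg the smooth muscle sum ran from 248 to 1270 CPM, while Gpx3 ran from 1610 to 1820 CPM. The part of any of these cells in the Gpx3 level was not tested.

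Gpx1, the cytosolic glutathione peroxidase (chr9:108338903-108340343, plus strand), was at 1260, 1600, 1690 and 1820 CPM in WT vehicle, at 1700, 1660, 2530 and 2670 in KO vehicle, and then at 1530, 2070, 2190 and 1890 CPM in KO Treg. KO vehicle 3 and 4 were the highest of all 12 libraries, and the other KO vehicle libraries lay within the range of WT vehicle. Gpx4, which reduces lipid hydroperoxides and protects against ferroptosis (chr10:80047166-80056439, plus strand), was at 978, 1240, 1340 and 1030 CPM in WT vehicle, at 1170, 846, 1440 and 1100 in KO vehicle, and then at 1610, 1270, 1150 and 1560 CPM in KO Treg. All 3 groups overlapped for both genes.

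The stress-induced genes were the lowest in counts. Nqo1 (chr8:107388225-107403206, minus strand) was at 2.89, 5.04, 4.85 and 3.80 CPM in WT vehicle, at 6.16, 3.52, 4.50 and 6.09 in KO vehicle, and then at 4.27, 5.25, 8.24 and 3.88 CPM in KO Treg, from 27 to 60 counts per library. Hmox1 (chr8:75093621-75100589, plus strand) was at 17.4, 17.3, 25.5 and 22.4 CPM in WT vehicle, at 40.9, 22.6, 13.6 and 19.3 in KO vehicle, and then at 31.4, 17.9, 21.1 and 27.7 CPM in KO Treg, from 121 to 358 counts. Both overlapped in all 3 groups. The highest Hmox1 level was in KO vehicle 1, which also carried placental transcripts. KO Treg 2, which carried more of them, had the lowest Hmox1 level of KO Treg, 17.9 CPM.

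**Figure D1:**
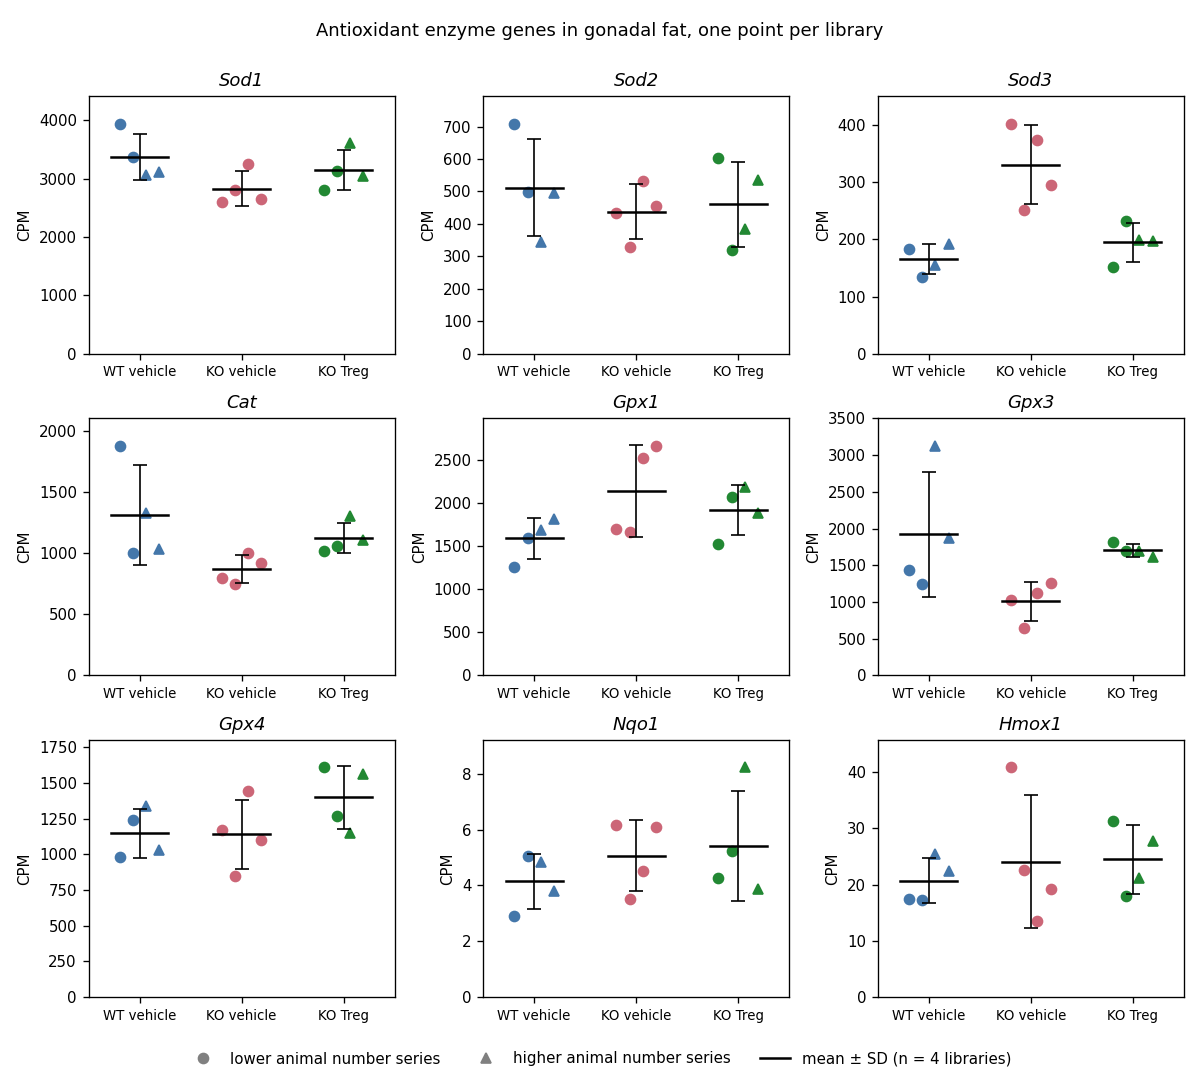
Level of each of the 9 antioxidant enzyme genes in CPM, with 1 point per library (circles for the lower, triangles for the higher number series) and the mean with its SD for WT vehicle, KO vehicle and KO Treg (4 libraries each). Sod3 in KO vehicle, from 252 to 402 CPM, lies above all other libraries, and Cat and Gpx3 in KO Treg lie above all KO vehicle libraries.

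The promoter of Cat is shown because Cat was among the members whose treated knockouts lay apart from the vehicle knockouts. That of Sod1 is shown for the core of the antioxidant response element, the site bound by NRF2. Among the members with a sequence, it alone held this core in the 250 bases searched. Bases further upstream were not searched, so the other members may hold such sites there. RefSeq (GRCm38.p6) gave promoter windows for 7 of the 9 members, and none was used for Sod3 or Hmox1. The windows are the 250 bases before a start site, written 5′ to 3′ on the gene's strand, with matches to the searched motifs in capitals. The Cat window is chr2:103485154-103485403 (minus strand) and the Sod1 window is chr16:90220512-90220761 (plus strand).
Cat: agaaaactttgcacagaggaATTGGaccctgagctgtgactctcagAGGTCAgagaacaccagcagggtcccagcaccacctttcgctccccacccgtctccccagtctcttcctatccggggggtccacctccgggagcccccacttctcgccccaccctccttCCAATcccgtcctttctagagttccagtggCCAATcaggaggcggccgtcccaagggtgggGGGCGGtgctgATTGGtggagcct
Sod1: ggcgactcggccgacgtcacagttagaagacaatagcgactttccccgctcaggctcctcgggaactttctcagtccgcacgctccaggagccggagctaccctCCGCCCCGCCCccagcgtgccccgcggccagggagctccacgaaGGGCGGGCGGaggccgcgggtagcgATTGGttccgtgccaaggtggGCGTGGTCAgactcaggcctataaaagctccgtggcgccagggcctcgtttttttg
The motifs were searched on both strands and overlapping matches were counted separately: TGACNNNGC (antioxidant response element core), CCAAT (the box of that name), GGGCGG (GC box) and AGGTCA (nuclear receptor half-site). Of 32851 mouse promoter windows of the same length, 10.2% held the first, 33.8% the second, 32.7% the third and 14% the fourth. The Cat window held 4 CCAAT matches (0.84% of the windows held at least 4), 1 GGGCGG, 1 AGGTCA and no TGACNNNGC. The Sod1 window held 1 TGACNNNGC, 1 CCAAT and 4 GGGCGG, of which neighbouring matches shared bases. The Gpx3 window held 1 CCAAT and 1 GGGCGG, and the Gpx1 window held none of the motifs. Start sites here are those of RefSeq. The Gpx3 window (chr11:54902604-54902853) lay inside the gene span given above, and the Gpx1 window (chr9:108338830-108339079) lay partly inside its own. A match is a string of letters and was not measured as a bound site.

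The first comparison, KO vehicle against WT vehicle, asks how these genes differed between vehicle-treated dams with and without the Cre label. Sod3 was the member with the largest difference, and Gpx3, Cat and Sod1 had lower means in KO vehicle while Gpx1 had a higher mean. The log2 fold change was -0.92 ± 0.26 (SE) for Gpx3, with a 95% interval from -1.48 to -0.37. For Cat it was -0.59 ± 0.18, with an interval from -0.98 to -0.21. Gpx1 differed by 0.42 ± 0.18, with an interval from 0.04 to 0.81.

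The other members had smaller mean differences. Intervals of members in this comparison are given as a description, and whether one includes 0 is not read as a test. Sod1 differed by -0.25 ± 0.13 and Sod2 by -0.23 ± 0.23, and both turned positive, to 0.05 and 0.10, when counts were taken per adipocyte marker count. Gpx4 differed by -0.01 ± 0.17, Nqo1 by 0.30 ± 0.29 and Hmox1 by 0.23 ± 0.29, and Hmox1 turned to -0.15 without KO vehicle 1. Over all genes tested, 0.279% passed an adjusted p of 0.05 in edgeR's quasi-likelihood test and 6.51% had groups that did not overlap. Sod3 was the 1 member of the 9 in each of these shares, which its choice from this contrast had fixed, so nothing is read from those counts.

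Some of these values rested on few libraries. Without WT vehicle 1 the Cat difference was -0.38, and it was -0.39 without the 3 libraries highest in Ucp1 and -0.26 per adipocyte marker count. Without WT vehicle 3 the Gpx3 difference was -0.60, and within the lower number series it was -0.41. The Gpx1 difference was 0.28 without KO vehicle 4, 0.31 without WT vehicle 1 and 0.32 without KO vehicle 3. The Sod3 difference, which chose the set, lay between 0.88 and 1.28 in the 24 alternatives, which reuse the same libraries.

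**Figure D2:**
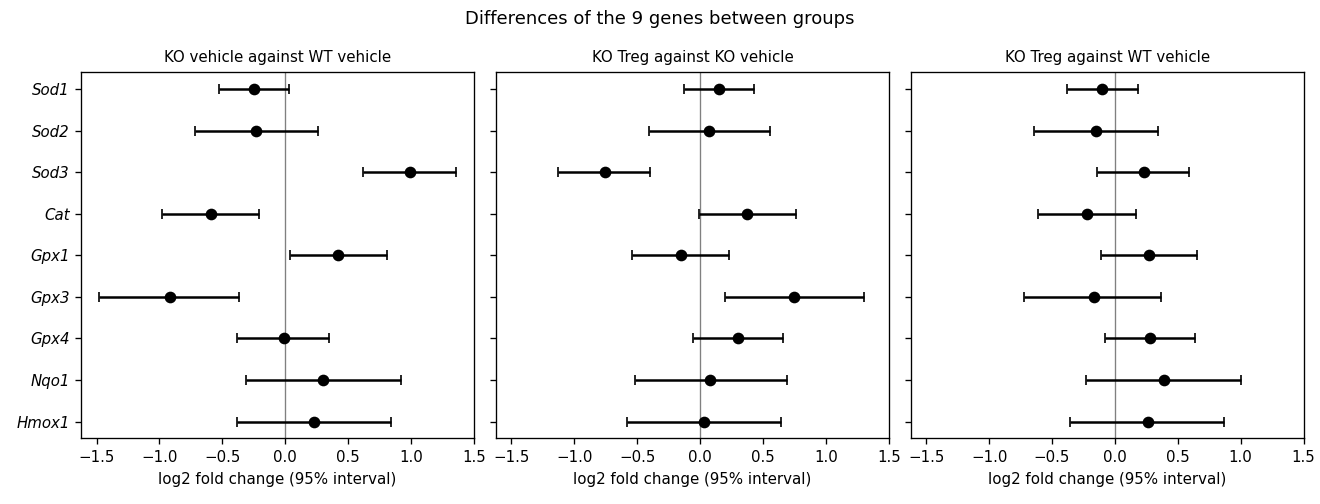
Log2 fold change of each of the 9 members in the 3 comparisons, as points with 95% intervals from edgeR's fit, and a line at 0. The Sod3 intervals are descriptions and no test, because its difference between KO vehicle and WT vehicle chose the set. Sod3 is at 0.99 in KO vehicle against WT vehicle and at -0.76 in KO Treg against KO vehicle, where Gpx3 is at 0.75; in KO Treg against WT vehicle all 9 intervals include 0.

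The second comparison, KO Treg against KO vehicle, asks how the treated knockouts differed from the vehicle knockouts. It shares the 4 KO vehicle libraries with the first, so opposite signs in the pair of comparisons are not separate evidence. For Sod3 the choice of the set on its high level in these KO vehicle libraries favours a lower value in any other group, so its values here are no independent test. Sod3 was lower and Cat and Gpx3 were higher in KO Treg, each with groups that did not overlap. No member passed the adjusted threshold in edgeR, beside 0.00821% of all genes tested; 2 of the 9 (Sod3 and Gpx3) had an unadjusted p under 0.05, beside 8.77%. Groups did not overlap for 3 of the 9, Sod3 included, beside 5.04% of all genes tested. DESeq2 called 1 member, Sod3, beside 0.561% of the genes to which it gave an adjusted p, and limma voom called 0, beside 0.00821%. The part of Sod3 in these counts was favoured by the choice of the set, so nothing is read from it.

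For Sod3 the log2 fold change was -0.76 ± 0.17 (SE), or 0.589-fold, given as a description. For Gpx3 it was 0.75 ± 0.26, with an interval from 0.20 to 1.3 and an edgeR adjusted p of 0.421. For Cat it was 0.37 ± 0.18, with an interval from -0.01 to 0.76 and an edgeR adjusted p of 0.598, and it was 0.16 per adipocyte marker count. All 4 KO Treg libraries of each of these genes lay on the same side of KO vehicle. For Cat and for Gpx3 the exact two-sided permutation test of mean log2 CPM gave p = 0.0286, the smallest value that its 70 arrangements allow. These are unadjusted values among 18 such tests of members. The interval and p-values of Sod3 in this comparison are not printed because its KO vehicle values chose the set. Within the lower number series, where 2 KO Treg libraries remained, Sod3 was at -0.77, Gpx3 at 0.82 and Cat at 0.28.

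Like Sod3, Cat and Gpx3, the other 6 members did not pass the adjusted threshold in edgeR. Their groups overlapped, and their exact permutation p ran from 0.171 (Gpx4) to 0.886 (Sod2). Gpx4 differed by 0.30 ± 0.17, with an interval from -0.06 to 0.66 and an exact permutation p of 0.171. Sod1 differed by 0.15 ± 0.13 (-0.06 per adipocyte marker count) and Gpx1 by -0.15 ± 0.18, with exact permutation p of 0.229 and 0.543. Sod2 at 0.07 ± 0.23, Nqo1 at 0.08 ± 0.29 and Hmox1 at 0.03 ± 0.28 changed sign under several alternatives. The intervals of Nqo1, from -0.52 to 0.69, and of Hmox1, from -0.58 to 0.64, were the widest of the 9.

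The third comparison, KO Treg against WT vehicle, sets treated knockouts beside the wild types and shares libraries with both other comparisons. No member passed in edgeR, beside 0% of all genes tested, none had an unadjusted p under 0.05, beside 2.87%, and DESeq2 and limma voom called none, beside 0.00608% and 0% of genes. No member had groups that did not overlap, beside 1.63% of genes. The WT vehicle values of Sod3 also entered the choice of the set, which favours a higher value here, so its values are a description. Sod3 differed by 0.23 ± 0.17, with an interval from -0.14 to 0.59. Cat differed by -0.22 ± 0.18, from -0.61 to 0.17, and Gpx3 by -0.17 ± 0.26, from -0.72 to 0.37. Those intervals do not show that the groups were alike: they allow Gpx3 to be lower by 0.72 or higher by 0.37 on the log2 scale. The Cat difference was 0.01 without WT vehicle 1, and the Gpx3 difference was 0.17 without WT vehicle 3 and 0.40 in the lower number series. Nqo1, at 0.39 ± 0.29, had the largest difference of the members, and its interval ran from -0.23 to 1.

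The wider network around the members was read from 11 lists of 164 genes: sources of superoxide and peroxide, other glutathione peroxidases, peroxiredoxins and thioredoxins, glutathione synthesis, glutathione transferases, NRF2 regulators, other NRF2 targets, haem and iron handling, copper supply, selenoproteins and peroxisomes. Of these, 163 were in the files and 148 were tested. None passed the edgeR threshold in any of the 3 comparisons, where 34, 1 and 0 of all genes did. In KO vehicle against WT vehicle, 27 of the 148 (18.2%) had an unadjusted p under 0.05, beside 12.4% of all genes tested, and DESeq2 called 4 of them (Blvra, Gsta4, Maob and Sephs2), beside 1.93% of the genes to which it gave an adjusted p. In KO Treg against KO vehicle 21 (14.2%) did, beside 8.77%, and DESeq2 called 1 (Pxmp4), beside 0.561%. For KO Treg against WT vehicle the count was 6 (4.05%), beside 2.87%, and DESeq2 called 0. The lists' genes were chosen with earlier results known, and nothing particular to them is read from these shares.

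In KO vehicle against WT vehicle the median log2 fold change over the 148 genes was -0.07, with 55 above 0 and 93 below, beside a median of 0 over all genes. Among the NRF2 targets 14 of 18 were below 0, with a median of -0.21, and among the selenoprotein genes 14 of 19 were, with a median of -0.06. Of the NRF2 regulators 7 of 9 were above 0, with a median of 0.16, while Nfe2l2, the gene of NRF2 itself, was at -0.06. That list mixes activators and repressors, so its count of signs has no single direction. Sephs2, which makes the selenium donor for selenoproteins such as the glutathione peroxidases, was at 114 ± 31.8 CPM in KO vehicle and 191 ± 15.0 CPM in WT vehicle (SD, n = 4 each), without overlap. Maob, a mitochondrial monoamine oxidase that releases hydrogen peroxide, was at 112 ± 29.5 against 177 ± 21.3 CPM, also without overlap. Blvra, the biliverdin reductase that acts after HMOX1, was at 92.0 ± 14.5 against 64.3 ± 7.51 CPM, and Mafk, a small MAF partner of NRF2, at 9.06 ± 1.91 against 5.47 ± 1.10 CPM, both higher in every KO vehicle library. Osgin1, an oxidative stress-induced growth inhibitor, was at 8.20 ± 2.88 against 15.4 ± 2.88 CPM. Ftl1, the ferritin light chain, was at 1130 ± 151 against 1590 ± 284 CPM, with groups that overlapped. Groups did not overlap for 11 of the 148 genes (7.43%) in this comparison, beside 6.51% of all genes tested. The genes named are only some of the 2 genes of smallest p in each list, not the smallest over all lists.

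In KO Treg against KO vehicle the median over the 148 genes was 0.06, with 81 above 0 and 67 below. Among the glutathione transferases 14 of 17 were above 0, with a median of 0.15. Among the NRF2 regulators, activators and repressors together, 8 of 9 were below 0, with a median of -0.14 and Nfe2l2 at -0.10. Maob was at 171 ± 15.6 CPM in KO Treg, a log2 fold change of 0.61 ± 0.17 with an edgeR adjusted p of 0.277. Pxmp4, a peroxisomal membrane protein, was at 25.0 ± 2.41 against 37.5 ± 4.69 CPM, a log2 fold change of -0.58 ± 0.13 with an edgeR adjusted p of 0.248. Gsta3, a glutathione transferase, had the largest difference of the genes named here, at 111 ± 57.2 against 34.9 ± 12.8 CPM, with a log2 fold change of 1.67 ± 0.49 and an edgeR adjusted p of 0.356. Cyba, the p22phox subunit of NADPH oxidase, was at 42.3 ± 6.17 against 57.6 ± 4.89 CPM, with a log2 fold change of -0.45 ± 0.13 and an edgeR adjusted p of 0.307. The groups of these 4 genes did not overlap, which held for 13 of the 148 genes (8.78%), beside 5.04% of all genes tested. They too are only some of the 2 genes of smallest p in each list.

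**Figure D3:**
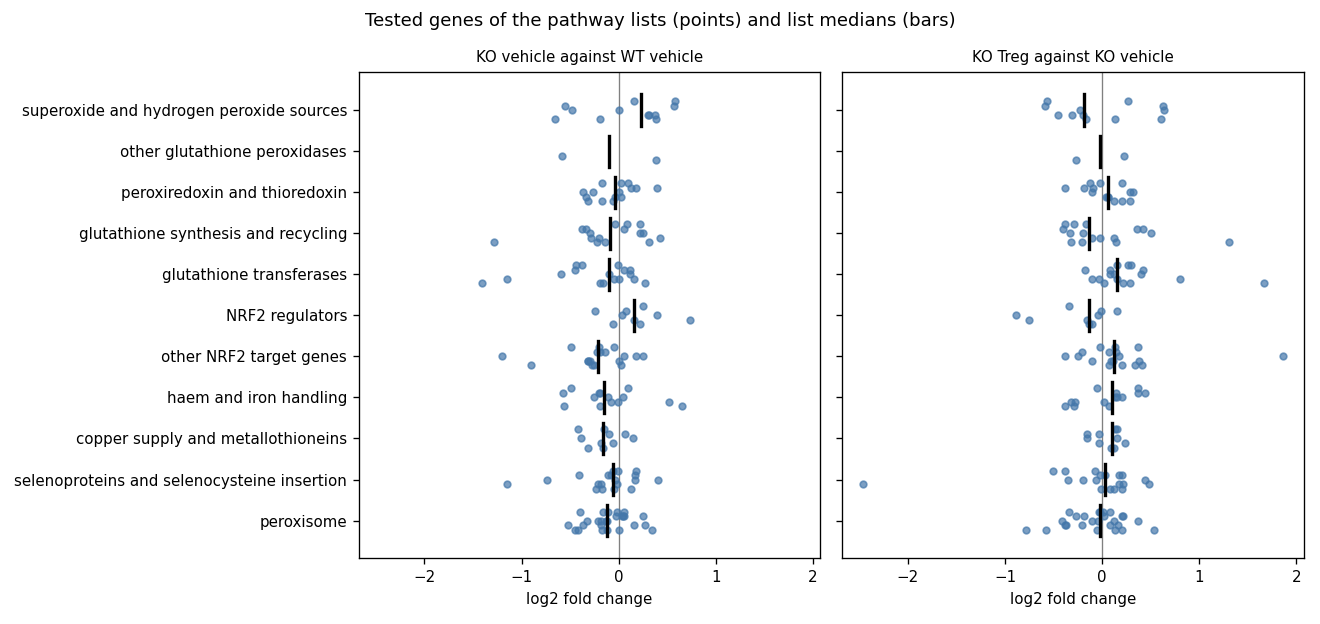
Log2 fold change of the tested genes of each of the 11 pathway lists, with 1 point per gene and a mark at each list's median, for KO vehicle against WT vehicle and KO Treg against KO vehicle. The medians lie between -0.21 and 0.23 and no gene passed the edgeR threshold.

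Markers of the cell types in the fat and of handling were read beside the members, and some of the 13 lists are given here. Of the 8 adipocyte markers 4 were above 0 and 4 below in KO vehicle against WT vehicle, with a median of 0.03, and Adipoq (adiponectin) differed by 0.07. Their summed level was nevertheless lower, from 66200 to 83400 CPM in KO vehicle against 83000 to 99500 CPM in WT vehicle and 69500 to 95400 CPM in KO Treg. Cfd (adipsin) made up 52% of that sum in WT vehicle, 35.6% in KO vehicle and 47.9% in KO Treg, and was at 46700, 26200 and 40600 CPM. The smooth muscle list was below 0 for all 9 of its genes in KO vehicle against WT vehicle, with a median of -1.46, and its sum was 290 to 2230 CPM in WT vehicle, 360 to 881 CPM for KO vehicle and 248 to 1270 CPM for KO Treg. Macrophage markers summed to 875 to 1020 CPM in WT vehicle, 969 to 1290 CPM for KO vehicle and 829 to 1210 CPM for KO Treg. In KO vehicle against WT vehicle 11 of 12 of them were above 0, with a median of 0.14. All 7 brown or beige fat markers were below 0 in each of the 3 comparisons, with medians of -0.88, -1.5 and -2.58. WT vehicle 1, at a sum of 5760 CPM, weighs on the WT vehicle means, as the other WT vehicle libraries lay at 140 to 390. The median sum was 330 for WT vehicle, 689 for KO vehicle (range 61.4 to 2260) and 172 for KO Treg (range 119 to 462). By median sum, KO vehicle was thus not below WT vehicle. Handling and immediate early genes summed to 163 to 199 CPM in WT vehicle, 184 to 234 CPM for KO vehicle and 168 to 184 CPM for KO Treg. The part of any of these cells, or of handling, in the levels of the members was not tested.

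For Sod3 the 5 genes of most similar profile were taken. Over the 12 libraries, Pearson's r of log2 CPM with Sod3 was 0.95 for Nedd4l, a ubiquitin ligase, 0.94 for Dap and Zfyve28, and 0.93 for Fgfrl1 and Atn1. All 12 libraries share their depth scaling and the group difference, so these are descriptions. Zfyve28 was at 1.71 ± 0.624 CPM in WT vehicle, 10.7 ± 4.12 in KO vehicle and 4.29 ± 2.73 in KO Treg (SD, n = 4 each). Fgfrl1, a receptor of the fibroblast growth factor family, was at 255 ± 45.3, 398 ± 43.6 and 309 ± 56.7 CPM. For the other members the closest gene was Plekhb1 for Sod1 (r = 0.91), Ppif for Sod2 (0.90), Alad for Cat (0.91), Prkcdbp for Gpx1 (0.94), Rab2b for Gpx3 (0.94), Lsm10 for Gpx4 (0.97), Fam98c for Nqo1 (0.90) and Tra2a for Hmox1 (0.91).

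**Figure D4:**
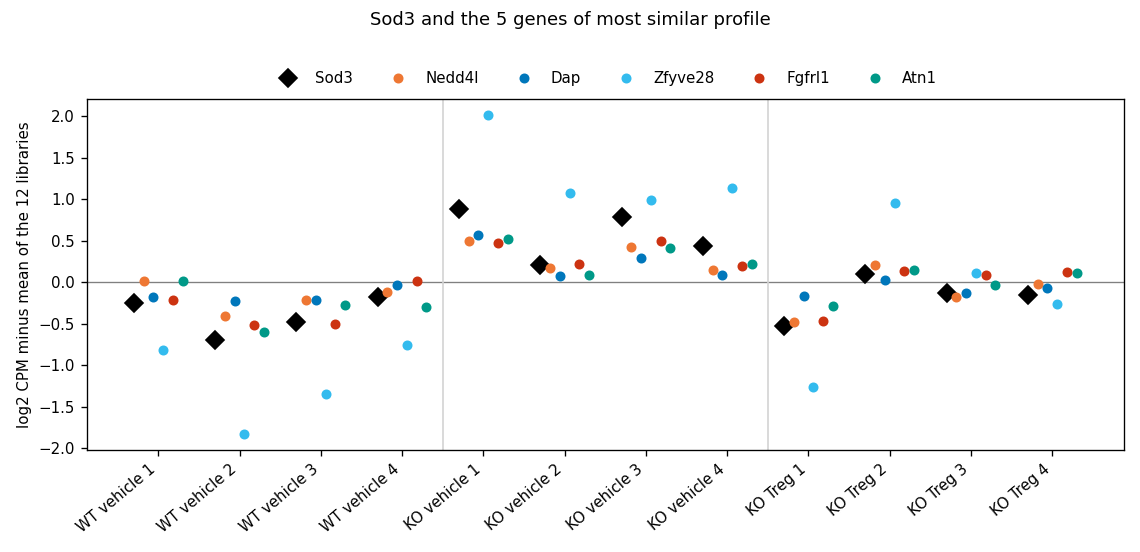
Log2 CPM of Sod3 (black diamonds) and the 5 genes of most similar profile (coloured points), each minus its mean over the 12 libraries, by library. Sod3 is at 0.21 to 0.88 in the KO vehicle libraries and at -0.70 to 0.10 in the others, and the 5 genes were picked for following it.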

How the data were processed

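For each of the 12 libraries the authors deposited 1 file of raw counts for 20632 gene symbols. Build mm10 and the tools HTSeq 0.6.1, TopHat2 2.1.1, SAMtools 1.3.1 and BWA 0.7.12 are named in the submitters' processing notes. What each tool did, which annotation was used and whether strand was counted is not stated there. Genes were filtered with filterByExpr, scaled by TMM and tested with the quasi-likelihood test (robust) of edgeR 4.0.16 in R 4.3.3, with 3 groups in 1 fit, no covariate and Benjamini-Hochberg adjustment over 12175 genes at a threshold of 0.05. CPM used TMM-scaled totals, and log2 CPM a prior count of 2. A standard error is the log2 fold change divided by the square root of F, and 95% intervals use edgeR's degrees of freedom. No 2 libraries were identical: all 66 pairs differed in a chi-square test of counts. Scripts were tested on simulated data. Alternatives were other scalings, DESeq2 1.42.0, limma 3.58.1 voom, other filters, the number series, and leaving out libraries. Counts per adipocyte marker count were an alternative added after seeing the data. Gene positions are from GENCODE M21. The members and gene lists were chosen with earlier results of these data known. The rule for names took all members, Tnfrsf11a, up to 2 genes of smallest p per pathway list and comparison (every gene past the threshold, had there been any), and the genes most correlated with each member, 5 for Sod3 and 1 for the others; only some of the pathway genes are printed.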

Additional observations from a re-analysis of the deposited data

Results flagged for a closer look

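In groups of 4, a library was singled out where its gap to the nearest other library, divided by the group's range, exceeded Dixon's 95% critical value; chance does so in about 5% of groups. None of the 27 groups of member values did, and 3 of the 39 groups of marker sums did. Markers of brown or beige fat summed to 5760 CPM in WT vehicle 1 against 140 to 390 CPM in the other WT vehicle libraries. Placental markers summed to 105 CPM in KO vehicle 1 against 14.6 to 19.2 CPM in the other KO vehicle libraries, and to 305 CPM in KO Treg 2 against 18.7 to 32.3 CPM in the other KO Treg libraries. WT vehicle 1 also held the highest Cat and Sod2 levels, and KO vehicle 1 the highest Hmox1 and Sod3 levels. KO vehicle 2, second in brown or beige fat markers at 2260 CPM, had the lowest Cat and Sod2 levels of KO vehicle, 746 and 329 CPM. KO Treg 2 had the lowest Hmox1 level of KO Treg, 17.9 CPM, but its highest Sod3 level, 233 CPM. Without KO vehicle 1 and KO Treg 2, Sod3 was at 0.88 in KO vehicle against WT vehicle and at -0.75 in KO Treg against KO vehicle.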

How the results depend on the processing

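Sod3 ran from 0.88 to 1.28 in KO vehicle against WT vehicle and from -0.97 to -0.64 in KO Treg against KO vehicle over the alternatives. These reuse the KO vehicle libraries whose high Sod3 chose the set, so its constant sign is a description and no support. Cat (0.16 to 0.46) and Gpx3 (0.57 to 0.90) kept their signs in KO Treg against KO vehicle. Counts of calls depended on the processing, and the cause was not tested. In KO vehicle against WT vehicle, 34 genes were called; DESeq2 called 250, the number series as a covariate and the lower series alone left 0, leaving out the placental libraries left 3 and leaving out the libraries with the most Ucp1 left 0, and leaving out 1 library gave 1 to 125. Members called went from 1 to 2 with DESeq2 (Sod3 and Gpx3) and to 0 under those 4 other alternatives, and ranged from 0 to 1 with 1 library left out; Sod3 was chosen on this contrast, so these counts test nothing about it. Pathway genes called went from 0 to 4 with DESeq2, and from 0 to 2 with 1 library left out (Gpx8 and Gsta4 without WT vehicle 4). In KO Treg against KO vehicle the 1 gene called became 0 under RLE scaling, the 1 CPM filter, the fit of 2 groups, the covariate, the lower series, and without the placental or Ucp1 libraries, and 64 with DESeq2; leaving out 1 library gave 0 to 0. DESeq2 called 1 member and 1 pathway gene there, and 1 gene in KO Treg against WT vehicle.

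Scaling to adipocyte marker counts was chosen after seeing the data, carries no test, and has a denominator led by Cfd, which was itself lower in KO vehicle. In KO Treg against KO vehicle it turned Sod1 to -0.06, Sod2 to -0.16, Nqo1 to -0.15 and Hmox1 to -0.10; in KO Treg against WT vehicle it turned Gpx3 to 0.01. In KO vehicle against WT vehicle it moved Sod1 to 0.05, Sod2 to 0.10, Sod3 to 1.28, Cat to -0.26 and Gpx4 to 0.27.

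Other signs also changed, for differences that passed no test. With 1 library left out, KO Treg against KO vehicle ran from -0.07 to 0.22 for Sod2, from -0.16 to 0.23 for Nqo1 and from -0.15 to 0.41 for Hmox1, and KO Treg against WT vehicle from -0.31 to 0.05 for Sod2, from -0.33 to 0.01 for Cat and from -0.33 to 0.17 for Gpx3. In KO Treg against KO vehicle, Sod2 was -0.02 without KO vehicle 2 and -0.07 without KO Treg 1. Nqo1 was -0.06 with limma voom, -0.04 with the covariate, -0.07 in the lower series, -0.18 without the Ucp1 libraries, -0.04 without KO vehicle 2 and -0.16 without KO Treg 3. Hmox1 was -0.08 with the covariate, -0.27 without the Ucp1 libraries, -0.15 without KO vehicle 3, -0.05 without KO vehicle 4, -0.10 without KO Treg 1 and -0.02 without KO Treg 4. In KO Treg against WT vehicle, Sod2 was 0.05 and Cat 0.01 both without WT vehicle 1 and without the Ucp1 libraries, and Gpx3 was 0.40 in the lower series and 0.17 without WT vehicle 3. Gpx4, near 0 in KO vehicle against WT vehicle, ran from -0.16 to 0.27. No paired analysis was possible because the replicate numbers follow accession order and the labels pair no animals. Depth limits Nqo1 most, with 27 to 60 counts per library.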
